A study of Mus musculus with 4 samples.

Results

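The genes described here encode chromatin remodelling machines other than BAF. They are 35 genes, chosen by symbol from what is known of these complexes. The choice was made with earlier results of these data known. The 35 comprise 14 of NuRD, 6 CHD genes outside NuRD, 7 of ISWI, 5 of INO80 and 3 further SNF2-type ATPase genes. All 35 were found, by Entrez number, among the 14382 genes of the deposited table and tested, with 113 to 7208 reads per gene and library. They were followed in mouse embryonic stem cells (ESCs) of genotype Arid1a f/f:CreERT2, in which 4-hydroxytamoxifen (4-OHT) activates a Cre recombinase that cuts out the floxed part of Arid1a, a subunit gene of the BAF remodelling complex. Cells received ethanol, the solvent (2 libraries), or 1 µM 4-OHT (2 libraries) over 24 hours, and RNA was taken at 72 hours. Floxed alleles and CreERT2 are present in both groups, and no group received 4-OHT without floxed alleles, so effects of the drug or of Cre itself cannot be told apart from those of the deletion. The labels give neither the promoter driving CreERT2 nor the number of clones. The cells grew on irradiated embryonic fibroblasts, whose RNA can be part of each library. Nothing in the labels says that the libraries of a group came from separate cultures, so p-values measure the spread between these libraries, which may be technical.

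Remodellers use ATP to slide, evict, space or exchange nucleosomes. NuRD couples a CHD motor with histone deacetylases, ISWI enzymes space nucleosomes together with large BAZ or BPTF partners, and INO80-family complexes move nucleosomes or exchange the histone variant H2A.Z. In ESCs, NuRD is known for tuning pluripotency genes, and Chd1, Ep400 and Ino80 for supporting the self-renewing state. The comparison asks whether RNA levels of these machines differed after 4-OHT.

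Effective library sizes were 6451759 and 6410293 reads for ethanol libraries A and B and 7035534 and 6291532 for 4-OHT libraries A and B, and CPM is the number of reads scaled by that size. The targeted gene, Arid1a, had 517 and 502 CPM under ethanol against 241 and 213 CPM under 4-OHT (log2 fold change -1.16, SE 0.0658, limma adjusted p = 7.27e-06). These reads cover the whole gene, since the floxed exons were not measured separately. The 10 ESC markers were all expressed and summed to 3893 to 4028 CPM under ethanol and 4043 to 4244 CPM under 4-OHT. In limma 2 of them, Nanog and Tdgf1, rose and 3, Sox2, Esrrb and Fbxo15, fell. Over all tested genes 5.24% were called higher and 4.22% lower. The 15 fibroblast markers with values summed to 275 to 281 CPM under ethanol and 293 to 308 CPM under 4-OHT. None of these 15 was at 0. In limma 2 of them, Col1a2 and Thy1, rose and 1, Col5a2, fell, beside the same shares of all tested genes. The part of the fibroblast markers in the results was not tested. In bulk RNA, fewer cells of a type and less RNA per cell cannot be told apart.

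Among the 35 remodeller genes, Baz1a fell, Chd3 rose, and the other 33 did not pass the test (limma on log2(CPM + 1), Benjamini-Hochberg adjusted p under 0.05 over all 14376 tested genes). By that rule 9.46% of all tested genes were called, 5.24% higher and 4.22% lower. Among genes with a mean of at least 16 CPM, a minimum just under the lowest remodeller gene, 10.8% were called. The 2 calls among 35 genes are therefore no more than the background gives. The median log2 fold change of the 35 was -0.024, and that of all tested genes -0.0016. On the log2(CPM + 1) scale 26 of the 35 differed by no more than 1.1-fold and 32 by no more than 1.2-fold, as did 5331 and 7283 of the 8586 genes with at least 16 CPM.

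Applied to the recovered reads, edgeR's quasi-likelihood test called Chd3, Chd4, Ep400 and Chd9 higher and Baz1a lower. Over all genes it called 8.12% higher and 7.63% lower. Limma also called these 4 genes higher once genes with a mean log2(CPM + 1) under 1 were left out, a setting that called 7.86% of the genes higher. Groups without overlap were seen in 9 remodeller genes with 4-OHT above and 7 with 4-OHT below, where 26.4% and 25.7% of all tested genes showed them. The 9 were Chd3, Chd4, Chd6, Chd9, Bptf, Ino80, Ep400, Ruvbl2 and Gatad2b, and the 7 were Baz1a, Ruvbl1, Mta1, Hdac2, Rbbp7, Cdk2ap1 and Atrx. These counts, too, lie near or under the background.

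**Figure D1:**
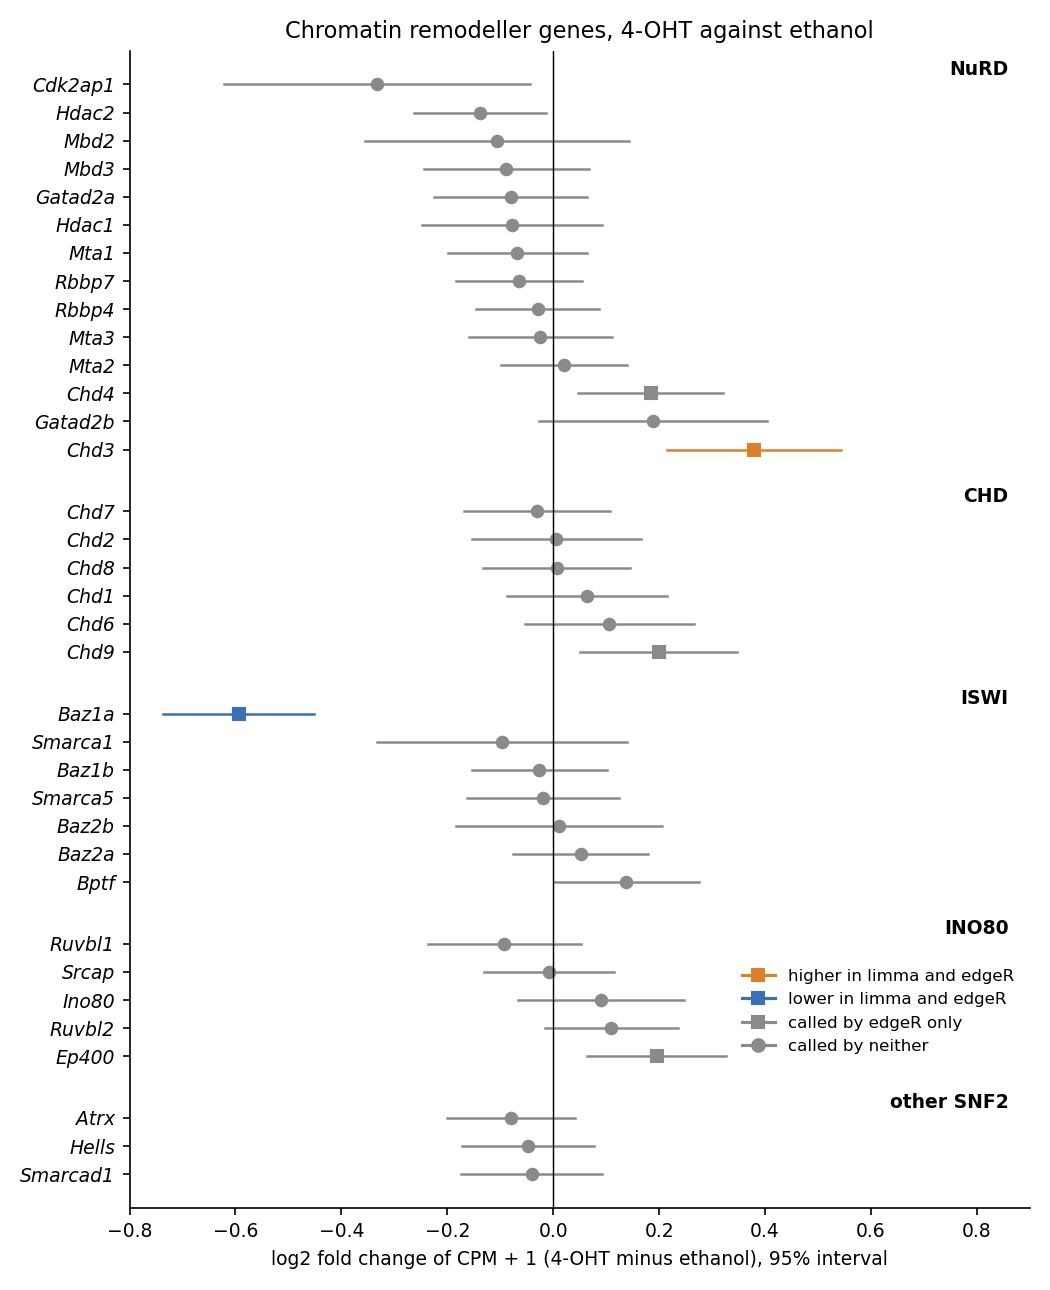
Log2 fold change of CPM + 1 (horizontal axis, 4-OHT minus ethanol) with its 95% interval from limma for the 35 genes, by family. Baz1a at -0.59 (blue) and Chd3 at 0.38 (orange) were called by limma and edgeR, Chd4, Ep400 and Chd9 (grey squares) by edgeR only, and the genes with grey circles by neither.

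Baz1a had the largest difference of the 35. It encodes ACF1, the regulatory partner of the ISWI motor in the nucleosome-spacing complexes ACF and CHRAC (ENSMUSG00000035021, mm10 chromosome 12, 54892989 to 55014371). Its libraries had 119 and 123 CPM under ethanol against 80.9 and 79.3 CPM under 4-OHT. Both 4-OHT libraries lay well below both ethanol libraries, and values within a group were close. The mean went from 121 ± 2.86 to 80.1 ± 1.1 CPM (SD, n = 2 per group), 0.660 times the ethanol level (log2 fold change -0.59, SE 0.0640, limma adjusted p = 0.000428, fold interval 0.60 to 0.732). The adjusted p was 1.96e-09 in edgeR and 2.26e-06 in DESeq2. Baz1a ranked 241 of 606 by size among the genes limma called lower, and 101 of 14376 by p-value among all tested genes. Without 4-OHT library A or B limma called no gene, Baz1a included (adjusted p = 0.134 and 0.136), whereas edgeR called Baz1a lower with any one of the 4 libraries left out.

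No other ISWI gene passed in limma or edgeR. Smarca5 encodes SNF2H, the ISWI motor that ACF1 binds, and had 147 and 161 CPM under ethanol against 154 and 150.2 CPM under 4-OHT. These groups overlapped (log2 fold change -0.020, SE 0.0645, limma adjusted p = 0.894, fold interval 0.893 to 1.09). Smarca1, which encodes the paralogous motor SNF2L, had means of 34.2 ± 1.26 CPM under ethanol and 32 ± 3.48 CPM under 4-OHT. Bptf, the large NURF subunit that reads histone methylation, had 309 and 320.1 CPM under ethanol against 363 and 330.1 CPM under 4-OHT, and its 4-OHT libraries were the higher ones without passing (log2 fold change 0.14, adjusted p = 0.205 in limma and 0.116 in edgeR). With each library left out in turn, the edgeR log2 fold change of Bptf ranged from 0.069 without 4-OHT library A to 0.21 without 4-OHT library B. Baz1b (WSTF, of the WICH complex), Baz2a (TIP5, which acts at ribosomal DNA) and Baz2b had overlapping groups, with ethanol means of 322 ± 0.620, 367 ± 0.792 and 47.1 ± 3.73 CPM and 4-OHT means of 317 ± 16.6, 381 ± 21.0 and 47.4 ± 0.349 CPM. Per kilobase of exons, Baz1a made up 17.0% ± 0.200 of the summed level of Baz1a, Baz1b, Baz2a, Baz2b and Bptf under ethanol and 11.5% ± 0.432 under 4-OHT (SD, n = 2). The 4-OHT shares were both below the ethanol shares.

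Chd3 was the one NuRD gene that passed in limma. CHD3 is one of the alternative motor subunits of NuRD (ENSMUSG00000018474, chromosome 11, 69343273 to 69369499). Its libraries had 91.1 and 81.1 CPM under ethanol against 114 and 110.1 CPM under 4-OHT. Both 4-OHT libraries were above both ethanol libraries, and the ethanol pair was the more spread. The mean rose from 86.1 ± 7.08 to 112 ± 2.92 CPM, 1.30 times the ethanol level (log2 fold change 0.38, SE 0.0739, limma adjusted p = 0.00969, fold interval 1.16 to 1.46). The adjusted p was 0.000110 in edgeR and 0.0143 in DESeq2. Limma did not call Chd3 without ethanol library B (adjusted p = 0.0575) or without 4-OHT library A or B (0.234 and 0.204), while edgeR called it higher with any one library left out. By size Chd3 ranked 597 of the 754 genes that limma called higher, so most called rises were larger.

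Chd4 encodes the motor best known from NuRD in ESCs and had the highest CPM of the 35 genes. Its libraries had 855 and 854 CPM under ethanol against 1025 and 920.3 CPM under 4-OHT. The ethanol libraries were nearly equal, and both 4-OHT libraries were higher but differed from each other. Chd4 passed in edgeR (adjusted p = 0.0149) and not in DESeq2 (0.0615) or limma (log2 fold change 0.18, SE 0.0614, limma adjusted p = 0.0956, fold interval 1.03 to 1.25). Per kilobase of exons, Chd3 stood at 10.2 ± 0.839 and Chd4 at 107 ± 0.0489 CPM per kb under ethanol, and at 13.3 ± 0.346 and 121 ± 9.19 under 4-OHT. Chd3 was 9.20% and 8.27% of the sum of both in the ethanol libraries and 9.58% and 10.2% in the 4-OHT libraries. Chd4 was thus the more abundant motor transcript in every library.

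**Figure D2:**
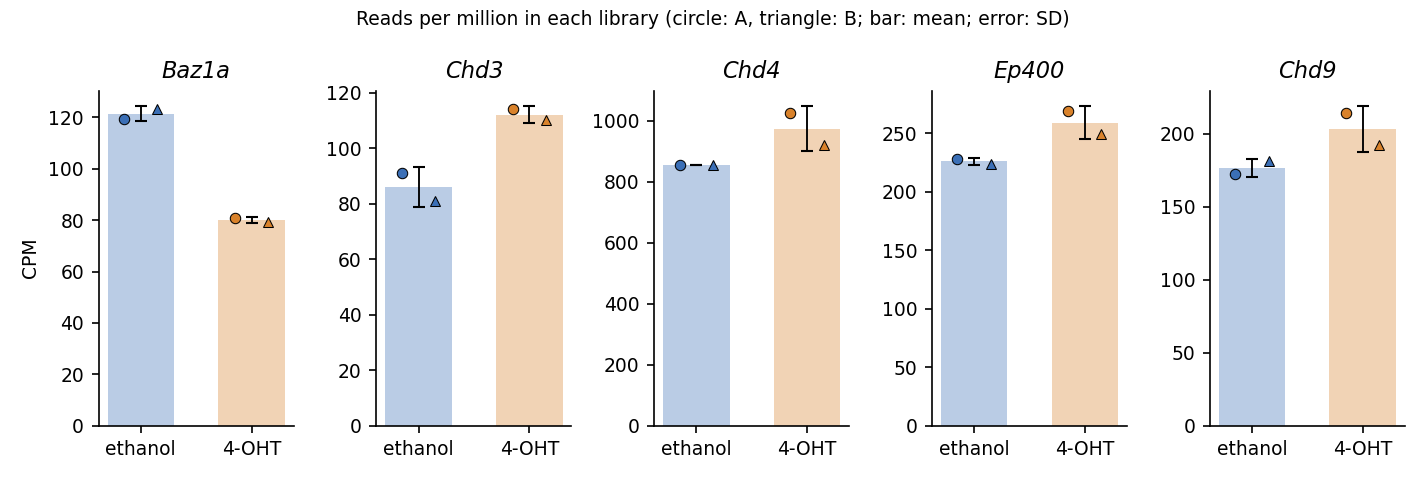
CPM (vertical axes, starting at 0) of the 5 genes called by limma or edgeR, for ethanol (blue) and 4-OHT (orange). Circles show library A, triangles library B, bars group means and whiskers SDs; Baz1a lay lower under 4-OHT with little spread, and library A lay above library B in the 4-OHT pairs of Chd4, Ep400 and Chd9.

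The remaining 12 NuRD genes passed in neither limma nor edgeR. Hdac1 and Hdac2 encode the deacetylases, which remove acetyl groups from histone tails. Hdac2 had 190.5 and 188 CPM under ethanol against 170.1 and 173 CPM under 4-OHT, so that both 4-OHT libraries were below the ethanol pair (log2 fold change -0.14, adjusted p = 0.168 in limma and 0.156 in edgeR). Hdac1 had overlapping groups with means of 93.7 ± 8.15 CPM under ethanol and 88.6 ± 2.54 CPM under 4-OHT. The histone-binding genes Rbbp4 and Rbbp7, whose products several chromatin complexes share, averaged 625 ± 1.77 and 449 ± 16 CPM under ethanol and 613 ± 17.4 and 429.6 ± 4.07 CPM under 4-OHT.

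Mta1, Mta2 and Mta3 encode the scaffolds that hold the deacetylases. Their shares of the summed MTA level per kilobase were 40.3% ± 0.868, 43.8% ± 0.733 and 15.9% ± 0.136 under ethanol and 39.0% ± 0.874, 45.1% ± 1.23 and 15.9% ± 0.358 under 4-OHT (SD, n = 2). Mbd3 and Mbd2 encode the alternative methyl-CpG binding domain subunits, which mark distinct NuRD assemblies, and both had overlapping groups. Mbd3 averaged 203 ± 19.4 CPM under ethanol and 190.2 ± 0.268 CPM under 4-OHT, and Mbd2 averaged 27.3 ± 2.21 and 25.3 ± 1.36 CPM. Per kilobase Mbd2 was 7.73% ± 1.26 of the pair under ethanol and 7.59% ± 0.367 under 4-OHT. The p66 genes Gatad2a and Gatad2b, whose products link the MBD subunit to the motor, did not pass. Gatad2a had overlapping groups, with 376 and 334 CPM under ethanol against 339 and 331 CPM under 4-OHT. Gatad2b had 40.5 and 34.9 CPM under ethanol against 43.1 and 42.9 CPM under 4-OHT, so that both 4-OHT libraries were above the ethanol pair. Cdk2ap1, a small NuRD-associated subunit, had the lowest mean CPM of the 35 genes, with 22.0 and 22.8 CPM under ethanol against 16.1 and 19.2 CPM under 4-OHT. Its 4-OHT libraries were both below the ethanol pair, but its interval was wide (log2 fold change -0.33, fold interval 0.650 to 0.970), and it passed in neither limma (adjusted p = 0.152) nor edgeR (0.0704). With each library left out in turn, its edgeR log2 fold change ranged from -0.48 without 4-OHT library B to -0.22 without 4-OHT library A.

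Of the 6 CHD genes outside NuRD, none passed in limma, and edgeR called Chd9 higher. Chd9, a large CHD gene of the same subfamily as Chd7 and Chd8, had 172 and 181 CPM under ethanol against 214 and 192 CPM under 4-OHT. Both 4-OHT libraries were above the ethanol pair, library A more so (log2 fold change 0.20, SE 0.0669, limma adjusted p = 0.0977; 0.0253 in edgeR and 0.247 in DESeq2). Chd1, which recognises a histone methyl mark of active promoters, had 180.0 and 193 CPM under ethanol against 205 and 185 CPM under 4-OHT, with overlapping groups (log2 fold change 0.064, SE 0.0679, limma adjusted p = 0.630, fold interval 0.941 to 1.16). Chd7, known for binding at enhancers, had 224 and 220.4 CPM under ethanol against 228 and 207 CPM under 4-OHT (log2 fold change -0.031, SE 0.0620, limma adjusted p = 0.823, fold interval 0.890 to 1.08). Chd8 had 227 and 231 CPM under ethanol against 241 and 219 CPM under 4-OHT (log2 fold change 0.0064, SE 0.0621, limma adjusted p = 0.965, fold interval 0.913 to 1.11). The groups of Chd7 and Chd8 overlapped as well. Chd2 averaged 89.6 ± 1.79 CPM under ethanol and 90.03 ± 5.94 CPM under 4-OHT, and Chd6 averaged 112 ± 1.94 and 121 ± 10.2 CPM. In all 6 genes 4-OHT library A was above library B.

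The INO80 family comprises the motors INO80, SRCAP and EP400 and the AAA+ ATPases RUVBL1 and RUVBL2 that their complexes share. None of these 5 genes passed in limma. Ep400, whose product belongs to the TIP60 acetyltransferase complex, had 228 and 224 CPM under ethanol against 269 and 249 CPM under 4-OHT, and the groups did not overlap. It passed in edgeR (adjusted p = 0.0212) and not in DESeq2 (0.164) or limma (log2 fold change 0.20, SE 0.0588, limma adjusted p = 0.0682, fold interval 1.05 to 1.25). Srcap, whose complex deposits H2A.Z, had 240.1 and 246 CPM under ethanol against 246 and 237 CPM under 4-OHT, with overlapping groups (log2 fold change -0.0083, SE 0.0552, limma adjusted p = 0.950, fold interval 0.913 to 1.08). Ino80 had 71.6 and 70.8 CPM under ethanol against 77.7 and 74.1 CPM under 4-OHT, slightly higher in both 4-OHT libraries without passing (log2 fold change 0.090, SE 0.0701, limma adjusted p = 0.487, fold interval 0.956 to 1.19). Ruvbl1 and Ruvbl2, whose proteins form one ring, pointed in opposite directions. Ruvbl1 averaged 96.7 ± 0.221 CPM under ethanol and 90.7 ± 2.39 CPM under 4-OHT, and Ruvbl2 averaged 412 ± 20.2 and 445 ± 7.21 CPM (limma adjusted p = 0.439 and 0.271).

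The promoters of Chd4, Ep400 and Chd9 are shown because these 3 genes, called higher by edgeR and not by limma, leaned the same way; promoter sequence was at hand for 27 of the 35 genes. Each is the 250 bases before 1 transcript start, the first listed for the gene in a RefSeq table (GRCm38.p6), 5′ to 3′ on the gene's strand. The RefSeq gene spans reach further upstream for Chd9, from 90828302, and for Ep400, up to 110770927, so the window of Chd9 lies wholly and that of Ep400 mostly inside the gene. Capitals mark the GC box GGGCGG on either strand.
Chd4, chr6:125095731-125095980, plus strand: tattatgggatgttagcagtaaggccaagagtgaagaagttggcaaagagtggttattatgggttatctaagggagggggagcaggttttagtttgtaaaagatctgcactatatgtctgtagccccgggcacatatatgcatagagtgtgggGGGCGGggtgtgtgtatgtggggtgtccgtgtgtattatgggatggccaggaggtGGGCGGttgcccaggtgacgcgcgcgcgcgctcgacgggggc
Ep400, chr5:110770718-110770967, minus strand: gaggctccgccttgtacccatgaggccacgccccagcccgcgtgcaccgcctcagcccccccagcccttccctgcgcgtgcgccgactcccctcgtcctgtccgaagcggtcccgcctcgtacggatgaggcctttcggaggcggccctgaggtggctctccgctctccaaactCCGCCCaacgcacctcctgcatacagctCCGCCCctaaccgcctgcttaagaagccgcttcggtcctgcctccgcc
Chd9, chr8:90828585-90828834, plus strand: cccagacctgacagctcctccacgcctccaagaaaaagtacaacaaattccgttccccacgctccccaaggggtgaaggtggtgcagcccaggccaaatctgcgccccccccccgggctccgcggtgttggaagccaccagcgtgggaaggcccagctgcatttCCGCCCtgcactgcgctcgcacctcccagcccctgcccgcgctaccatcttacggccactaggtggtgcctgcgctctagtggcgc
The GC box occurred 2 times in the window of Chd4, 2 times in that of Ep400 and 1 time in that of Chd9. It was found in 32.9% of 27025 RefSeq windows of this length and in 23 of the 27 remodeller windows. None of the 3 windows held the E-box CACGTG, the box CCAAT, the ETS core CCGGAA or the TATA box TATAAA on either strand. Those motifs were in 6.05%, 34.5%, 12.2% and 13.0% of all windows, and in 2, 15, 2 and 3 of the remodeller windows. G and C made up 54%, 70.0% and 66% of the 3 windows, and the median of all windows was 52%. A match describes letters and is no evidence of binding.

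Atrx, Hells and Smarcad1, the remaining SNF2-type ATPase genes, had small negative differences and did not pass. Atrx, which with DAXX places a histone H3 variant in repeats, had 362 and 379 CPM under ethanol against 347 and 354 CPM under 4-OHT. Its 4-OHT libraries were both below the ethanol pair (log2 fold change -0.080, SE 0.0539, limma adjusted p = 0.419, fold interval 0.871 to 1.03). Hells, needed for DNA methylation of repeats, had 376 and 390.3 CPM under ethanol against 360.0 and 382 CPM under 4-OHT, with overlapping groups (log2 fold change -0.047, SE 0.0560, limma adjusted p = 0.670, fold interval 0.888 to 1.06). Smarcad1, known for the upkeep of heterochromatin, had 218 and 236 CPM under ethanol against 224 and 217 CPM under 4-OHT, also overlapping (log2 fold change -0.040, SE 0.0598, limma adjusted p = 0.749, fold interval 0.887 to 1.07). Differences of the sizes inside these intervals cannot be told from none.

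Levels can be compared between genes per kilobase of exons. On this scale the highest under ethanol were Rbbp7 at 155 ± 5.5, Ruvbl2 at 142 ± 6.97, Chd4 at 107 ± 0.0489 and Mbd3 at 102 ± 9.77 CPM per kb. Under 4-OHT these stood at 148 ± 1.4, 153 ± 2.49, 121 ± 9.19 and 95.7 ± 0.135 CPM per kb, so the order of the Rbbp7 and Ruvbl2 means turned. The lowest under ethanol were Baz2b at 2.68 ± 0.212, Gatad2b at 3.29 ± 0.341, Smarca1 at 5.59 ± 0.205 and Chd6 at 5.87 ± 0.102 CPM per kb. Among the motor genes Hells (53.2 ± 1.4) followed Chd4. Chd1 (21.4 ± 1.08), Smarca5 (19.8 ± 1.28), Smarcad1 (17.0 ± 0.911), Atrx (17.0 ± 0.543), Ep400 (16.2 ± 0.217), Chd7 (16.1 ± 0.158), Srcap (15.4 ± 0.279) and Chd8 (13.9 ± 0.15) lay close together, with several neighbours within each other's SD. Baz1a moved from 17.0 ± 0.400 to 11.2 ± 0.154 CPM per kb. Exon length is the union of all annotated exons, which places genes with rare long isoforms too low.

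**Figure D3:**
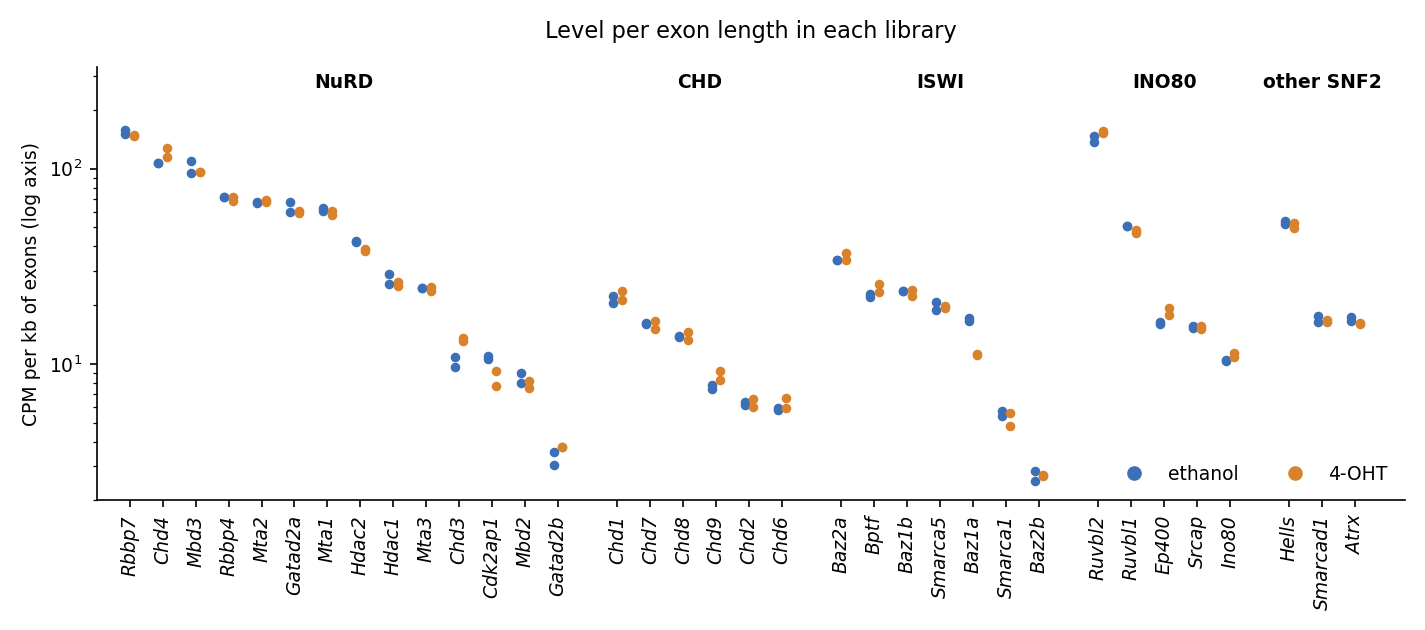
Level in CPM per kb of exons (log axis) of each gene in the ethanol (blue) and 4-OHT (orange) libraries, 2 points per group, by family and falling level. Ethanol means run from 2.68 for Baz2b to 155 for Rbbp7, and Baz1a shows a wide gap between blue and orange points.

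Within the 4-OHT pair, differences between the libraries went with exon length. Library A was above library B in 10 of 12 remodeller genes with at least 12 kb of exons, 5 of 6 with 8 to 12 kb, 5 of 9 with 4 to 8 kb and 3 of 8 under 4 kb. Over all genes with a mean of at least 16 CPM, the median log2 ratio of A over B went from -0.027 under 4 kb to 0.069 from 12 kb upwards, and that of the ethanol libraries A over B from 0.033 to -0.036. EdgeR called 11.1% of the genes from 12 kb upwards higher, and 7.15% to 7.63% in the shorter classes. It called 8.03% lower from 12 kb upwards, 10.6% from 8 to 12 kb, 8.70% from 4 to 8 kb and 7.75% under 4 kb. Chd4, Ep400 and Chd9 have 8.02, 14 and 23.1 kb of exons. Chd4 thus belongs to the class of 8 to 12 kb, where 7.15% were called higher. In 4-OHT library B they stood at 1.08, 1.1 and 1.09 times the ethanol mean. EdgeR called none of the 3 without 4-OHT library A (adjusted p = 0.256, 0.206 and 0.340), without ethanol library A (0.228, 0.143 and 0.301) or without ethanol library B (0.226, 0.227 and 0.0884). Without 4-OHT library B, the lower of that pair for these genes, it called all 3 higher (adjusted p = 0.000108, 0.00470 and 0.00264). The part of exon length in these calls was not tested. Baz1a and Chd3, with 7.16 and 8.44 kb, stood at 0.653 and 1.28 times the ethanol mean in library B.

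**Figure D4:**
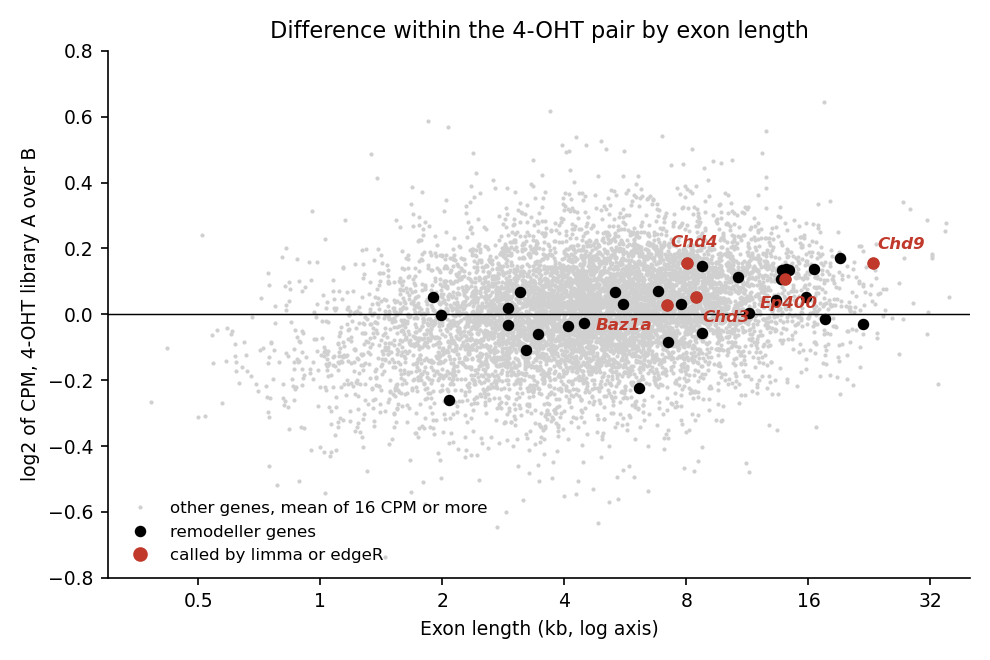
Log2 ratio of CPM in 4-OHT library A over B (vertical axis) against exon length (kb, log axis) for genes with a mean of at least 16 CPM (grey), remodeller genes (black) and those called by limma or edgeR (red). Chd4, Ep400 and Chd9 lie above 0, at 0.15, 0.11 and 0.16, and Baz1a and Chd3 nearer to it, at 0.028 and 0.053.

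Further subunits, partners and SNF2-type ATPases, 70 genes with values of 73 listed, had 3 rises and 2 falls in limma, and 65 did not pass; the median log2 fold change was -0.020. With 9.46% of all tested genes called, 5.24% higher and 4.22% lower, these calls among 70 genes are under the background. The lists were written with earlier results of these data known, so the count depends on which genes were listed. Sall1, a zinc finger gene whose product recruits NuRD, rose from 104 ± 7.0 to 176 ± 19.8 CPM (limma adjusted p = 0.000457). Zfp296, another zinc finger gene, rose from 38.4 ± 5.67 to 51.4 ± 2.79 CPM (adjusted p = 0.0376 in limma and 0.124 in DESeq2), and Sall4 had means of 409 ± 7.37 and 431 ± 22.1 CPM without passing (0.480). They belong to 12 NuRD partners with values, of which Sall1 and Zfp296 rose and 0 fell, where 5.24% of all tested genes were called higher. Among 8 further ISWI partners Cecr2, a bromodomain gene, rose from 109 ± 5.55 to 156 ± 13.6 CPM (limma adjusted p = 0.0020), the opposite direction to Baz1a. EdgeR also called Rsf1 higher (adjusted p = 0.0313).

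None of 12 further INO80 subunits and 17 further SRCAP and TIP60 subunits passed in limma. Of these, edgeR called Mbtd1 of TIP60 higher (144 ± 3.95 to 168 ± 9.0 CPM, adjusted p = 0.0128), where it called 8.12% of all genes higher. H2afz, the H2A.Z gene, had means of 115 ± 8.27 and 109.9 ± 10.7 CPM (limma adjusted p = 0.669). Of 8 partners of ATRX, HELLS and SMARCAD1 none passed, and Daxx averaged 119 ± 3.51 and 117 ± 11.3 CPM (0.881). Of 13 other SNF2-type ATPase genes, Hltf and Rad54l, both known for DNA repair, fell, where limma called 4.22% of all tested genes lower. Hltf went from 74.6 ± 0.430 to 59.99 ± 1.02 CPM and Rad54l from 91.8 ± 2.33 to 74.7 ± 1.85 CPM (limma adjusted p = 0.0224 and 0.0233; DESeq2 0.165 and 0.141). Limma called neither once any one library was left out. Beside the fall of Arid1a, the 28 BAF and PBAF genes with values had 1 rise, Bcl11a, from 5.37 ± 0.574 to 8.90 ± 0.677 CPM (adjusted p = 0.04995 in limma and 0.379 in DESeq2). Limma called 5.24% of all tested genes higher. EdgeR called Bcl11a and Dpf2 higher (adjusted p = 0.0115 and 0.0339), 2 of 28 where it called 8.12% of all genes higher. Smarca4, the BAF motor gene, averaged 464 ± 17.0 and 483 ± 18.8 CPM, and Arid1b, the paralogue of Arid1a, 89.7 ± 5.03 and 90.3 ± 1.08 CPM, and neither passed.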

How the data were processed

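PolyA RNA was sequenced in 4 libraries, 2 per group. Per the submitters' processing notes, the authors used FastQC, Trimmomatic, HISAT2 and edgeR with mm10. Versions, read counter and strand setting: not given in the sources used here. Per the labels' protocols the kit was TruSeq RNA v2 or TruSeq Stranded mRNA, with no word on which library got which, so kit and group cannot be told apart. The deposited table gives each group's mean CPM, which the authors computed per effective library size. Such a mean of 2 libraries is a sum of 2 whole read numbers, each times its own step, so the reads of each library (A and B, without replicate numbers) were recovered. Within the printed digits, 100% of 14382 values per column came out whole, with a single possible pair for 99.7% (ethanol) and 99.95% (4-OHT) of genes; 6 unsettled genes, all of 2859 CPM or more, were left out. The authors' deposited log2 fold changes and p-values were not used, since they do not match their rows (Spearman rho 0.0180 against the log2 CPM ratio).

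The main test was limma-trend 3.58.1 (R 4.3.3) on log2(CPM + 1) over 14376 genes, two-sided, at 0.05, without a filter. The design had assumed values per library. Alternatives were edgeR 4.0.16 (filterByExpr) and DESeq2 1.42.0 on recovered reads, pseudocounts of 0.1 and 5, DESeq2 size factors, a low-level filter, a threshold of 0.1 and each library left out. Fits were tested on simulated data. A second row with the symbol Chd1 has the Entrez number of Riok2 and was not counted as Chd1. Gene coordinates are from RefSeq and exon lengths from GENCODE M21, both mm10. By plan, genes called by limma or edgeR and 11 motor genes were named with full values. Of the lists, genes called by limma and 6 fixed genes were named. Outside this plan, and with the results known, library values were given for Bptf, Hdac2, Gatad2a, Gatad2b and Cdk2ap1, called by neither. Rsf1, Mbtd1 and Dpf2, called by edgeR only, were named after their values were seen. Members and lists were chosen with earlier results of these data known.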

Additional observations from a re-analysis of the deposited data

How the results depend on the processing

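No paired analysis was possible because the columns carry no replicate numbers. Under pseudocounts of 0.1 and 5 CPM, DESeq2 size factors and the DESeq2 test, all 35 remodeller genes kept direction and call. Genes called higher numbered 4, instead of 1, in edgeR and with low genes left out. Over all tested genes those settings called 8.12% and 7.86% higher. At a threshold of 0.1, which can only add calls, they also numbered 4. The share over all genes was not counted there, so this count cannot be set against the background. With each library left out in turn, the number of calls changed with the library. The limma log2 fold change then ranged from -0.62 to -0.57 for Baz1a and from 0.30 to 0.46 for Chd3. Leaving out libraries in edgeR was chosen after seeing the data. Of the further subunits and partners, 3 were called higher in limma. In edgeR and with low genes left out 5 were called higher, beside the same 8.12% and 7.86% over all tested genes. At 0.1 they numbered 6, again without a share over all genes to set this count against. The limma calls did not hold without either 4-OHT library. Of their 2 called lower, Hltf and Rad54l, 0 were called in DESeq2, where the log2 fold changes were still negative (-0.31 and -0.30). The log2 fold change of Arid1a ranged from -1.25 to -1.08 with a 4-OHT library left out, without passing in limma (adjusted p = 0.129 and 0.121). With any library left out, the lone library of its group is assumed to vary like the pair of the other group. Limma lost all its calls without a 4-OHT library and not without an ethanol library. The reason was not tested. Over all genes, 1360 were called in limma, 2042 in edgeR and 704 in DESeq2. With a library left out the sign turned in 15 uncalled genes, whose log2 fold changes ranged as follows: Chd1 -0.0090 to 0.14, Chd2 -0.061 to 0.073, Chd7 -0.098 to 0.037, Chd8 -0.063 to 0.076, Smarca5 -0.085 to 0.046, Smarca1 -0.20 to 0.012, Baz1b -0.080 to 0.027, Baz2a -0.0037 to 0.11, Baz2b -0.068 to 0.091, Srcap -0.034 to 0.018, Mbd3 -0.19 to 0.0087, Mta3 -0.058 to 0.0088, Hdac1 -0.17 to 0.010, Gatad2a -0.17 to 0.0054, Smarcad1 -0.095 to 0.014.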

Other observations

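Genes beside Baz1a and Chd3 did not pass the test. Snx6 and Cfl2 on one side of Baz1a had log2 fold changes of -0.060 and -0.15 (limma adjusted p = 0.691 and 0.279), and 2700097O09Rik and Srp54a on the other 0.32 and 0.41 (0.139 and 0.179). Beside Chd3, Kcnab3, Rnf227, Cyb5d1 and Naa38 had 0.15, 0.061, 0.34 and 0.022 (0.753, 0.904, 0.346 and 0.923). Kcnab3, Rnf227, Cyb5d1 and Srp54a had low means of 2.88, 3.38, 3.38 and 7.33 CPM over all libraries. Their SEs were 0.229, 0.214, 0.198 and 0.172, so not passing does not show that they were unchanged. No other tested gene overlaps Baz1a or Chd3 in RefSeq.

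For 56 genes the deposited symbol is neither the RefSeq symbol of the Entrez number nor one of its listed synonyms. One of them is a second entry named Chd1 with the Entrez number of Riok2, at means of 128 CPM under both ethanol and 4-OHT, beside Chd1 itself at 187 and 195 CPM.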
